A study of Mus musculus with 14 samples.

Results

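Expression at 36 and 48 h of adipocyte differentiation was compared between 3T3-L1 cells carrying a SETD5 retrovirus and 3T3-L1 cells carrying an empty retrovirus. The arrays labelled 36 or 48 h make up 4 of the 14 arrays of the series, with 1 array per virus and hour. 3T3-L1 is a mouse preadipocyte line. Both arms were grown to confluence and then given insulin, dexamethasone and isobutylmethylxanthine, the MDI mixture, until 48 h, so that all 4 arrays fall within the hormone treatment or at its end. The SETD5 virus encodes a V5-tagged protein driven by a weak retroviral promoter, and the transduced cells were selected with a drug. Each arm was 1 transduced line, so SETD5 cannot be told apart from any other difference between the lines. The remaining arrays (0, 12, 24, 96 and 192 h) entered the fit to estimate the spread, and the virus difference was given an effect of its own for 0 to 24 h and for 96 and 192 h. As no hour had a replicate, the hours stood in for replicates, and the p-values measure the spread of the virus difference between hours.

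Preadipocytes that receive the hormone mixture first express C/EBPβ and C/EBPδ, copy their DNA and divide. PPARγ and C/EBPα follow, sustain each other and switch on the genes of the fat cell, among them fatty acid carriers, the enzymes and coat proteins of the lipid droplet, and secreted adipokines. SETD5 is a SET domain protein that associates with corepressors of transcription. The question addressed at 36 and 48 h is where the arms first part while the late programme starts.

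Values are array intensities, and differences are log2 of SETD5 virus minus log2 of empty virus at the same hour after adding 16 to each intensity. Each gene was read from 1 probe set. Where an intensity is under 50 the size of a difference depends partly on the offset. Of 18193 genes, 8682 passed the filter on intensity. The probe set used for Setd5 gave 298 and 298 with the empty virus and 318 and 292 with the SETD5 virus at 36 and 48 h. The difference was 0.03 ± 0.11 (SE, n = 2 hours, limma adjusted p = 0.930). Other Setd5 probe sets gave -0.01 and 0.19, at mean intensities of 119 and 41.6, and were not called. Because no source used here places these probes along the transcript, the values check neither the labels nor expression from the virus. All 6 preadipocyte markers and 3 of 4 fat cell markers reached 50 on at least 1 of the 4 arrays (Slc2a4 did not). The markers of macrophages, bone and cartilage, muscle and brown fat, 17 in all, stayed at 40.5 or less. The ratio of 3′ to 5′ probe sets for Gapdh was 0.860 to 0.909 on the 4 arrays, and that for Actb was 1.83 to 2.51. The Actb ratio was lower in the SETD5 arm at both hours (2.26 against 2.51 at 36 h and 1.83 against 2.12 at 48 h); its part in the results was not tested.

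At 36 and 48 h, 84 genes were higher with SETD5 (0.968% of genes tested) and 42 were lower (0.484%) by the limma test with Benjamini-Hochberg adjustment. Together these 126 genes were 1.45% of those tested, and all had the same sign at both hours. The higher genes differed 1.44-fold to 3.17-fold (median 1.68), and the lower genes 1.47-fold to 3.91-fold (median 1.74). The difference was over 2-fold in 15 of the higher and 11 of the lower genes. The genes of adiponectin, FABP4 and resistin, products of the fat cell, headed the lower group. The higher group was led by the lipopolysaccharide-binding protein Lbp, the inositol transporter Slc2a13 and the helix-loop-helix inhibitor Id4. No gene was called without the 48 h pair (0 of 8682 genes, with 829 at an unadjusted p under 0.05) or without the hour block (0, with 117 higher and 35 lower at an unadjusted p under 0.05). Without the 36 h pair 21 genes were higher and 15 lower. Scaling all arrays to a common median gave 55 higher and 78 lower genes, so higher genes made up 66.7% of the calls as deposited and 41.4% after that scaling.

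**Figure D1:**
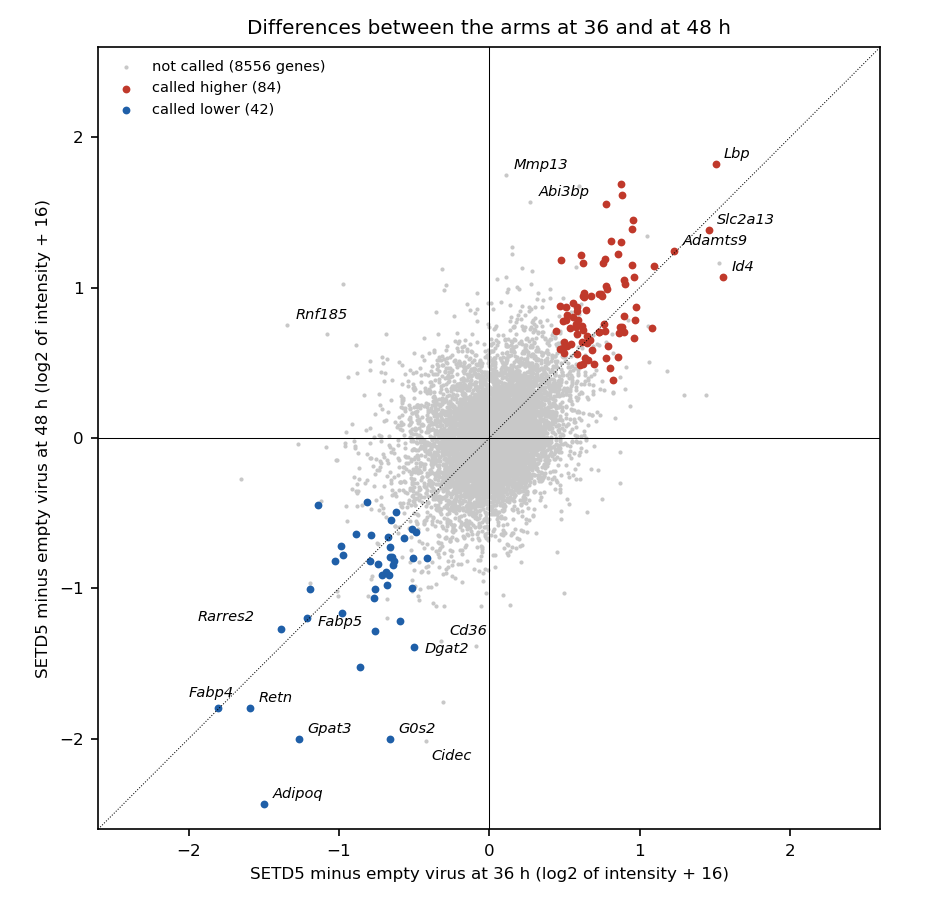
Difference between the arms at 36 h (x axis) and 48 h (y axis) for each of the 8682 genes tested, both on the log2 scale of intensity + 16. Red and blue points are the 84 and 42 genes called over both hours, the dotted line marks equal differences, and Cidec, Cd36, Mmp13 and Abi3bp lie away from it because their 48 h value was the larger.

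Secreted products and lipid carriers of the fat cell gave the largest falls. Adipoq, which encodes adiponectin, read 50 and 379 with the empty virus at 36 and 48 h and 7.40 and 56.9 with SETD5. The difference was -1.97 ± 0.24 (SE, n = 2 hours, limma adjusted p = 0.00618). The SETD5 arm at 48 h was thus near the level that the empty arm had at 36 h. Fabp4, the fatty acid carrier of adipocytes, read 809 and 4436 against 220 and 1268, a difference of -1.80 ± 0.19 (limma adjusted p = 0.00254). Its difference was the same size at both hours, -1.81 at 36 h and -1.79 at 48 h. Fabp4 had been lower at 24 h already (36.3 with the empty virus and 11.4 with SETD5, both under 50). Its difference over 0 to 24 h was not called (-0.44 ± 0.15, limma adjusted p = 0.398). Retn, the adipokine resistin, read 41.2 and 302 with the empty virus and 3.00 and 75.8 with SETD5 (-1.69 ± 0.16, limma adjusted p = 0.00254). Rarres2, the precursor of the adipokine chemerin, read 92.5 and 147 against 25.6 and 51.6 (-1.33 ± 0.19, limma adjusted p = 0.0114). Its SETD5 values both lay below both empty virus values, as did those of 16.2% of all genes tested.

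**Figure D2:**
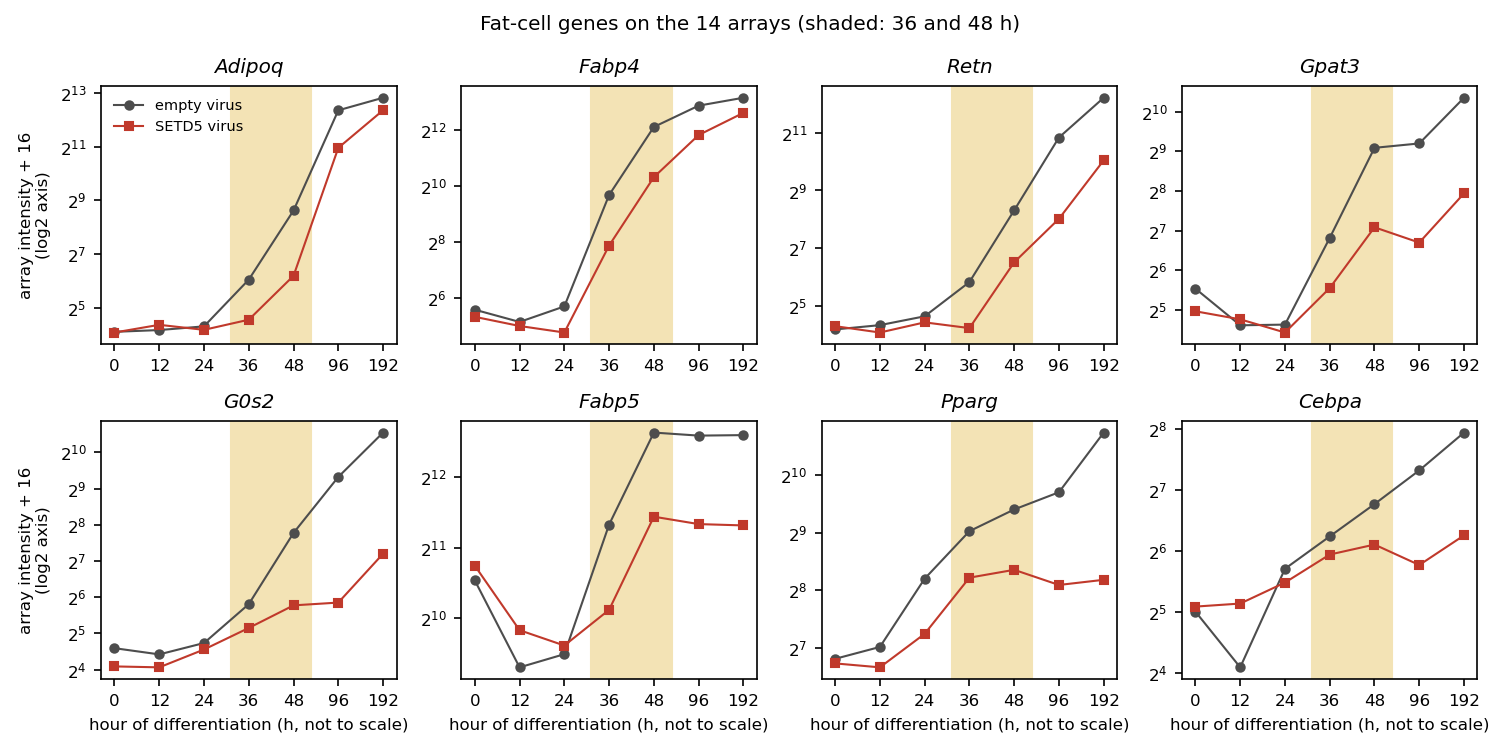
Array intensity + 16 (y axis, log2 scale) of 8 fat cell genes at each hour (x axis, not to scale), with 1 array per point, the empty virus in grey and the SETD5 virus in red. In the shaded hours Adipoq, Fabp4, Retn, Gpat3, G0s2 and Fabp5 were called lower with SETD5, while Pparg and Cebpa were lower at both hours and not called.

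Fabp5, a fatty acid carrier that preadipocytes also express, turned from higher to lower with SETD5 between 24 and 36 h. It read 2556 and 6354 with the empty virus and 1095 and 2764 with SETD5 (-1.20 ± 0.12, limma adjusted p = 0.00254). At 0, 12 and 24 h the SETD5 arm was instead the higher, with 1468 against 1700, 614 against 893 and 701 against 765. Fabp5 was the 1 gene of 8682 (0.0115%) whose difference at 36 and 48 h departed from that at 0 to 24 h by the test of that departure (-1.49 ± 0.16, limma adjusted p = 0.0174). That test had 605 genes at an unadjusted p under 0.05. It called no gene with quantile normalization, with an offset of 4, with no filter, without the hour block or without the 0, 12 or 48 h pair.

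Of the genes of lipid uptake and triglyceride assembly, Gpat3, Dgat2 and G0s2 fell besides the carriers Fabp4 and Fabp5. Gpat3, which adds the first fatty acid to glycerol phosphate, read 96.9 and 529 with the empty virus and 31 and 120 with SETD5 (-1.63 ± 0.19, limma adjusted p = 0.00584). Dgat2, which adds the last, read 77.5 and 248 against 50 and 84.9 (-0.95 ± 0.18, limma adjusted p = 0.0338). G0s2, which holds back adipose triglyceride lipase, read 40 and 203 against 19.5 and 38.7 (-1.33 ± 0.24, limma adjusted p = 0.0262). Dgat2 and G0s2 had a difference of -1.39 and -2.00 at 48 h and of -0.50 and -0.66 at 36 h. Plaat3, a phospholipase abundant in adipocytes, read 99.5 and 330.3 against 47.7 and 104 (-1.19 ± 0.15, limma adjusted p = 0.00618). Cidec, which fuses lipid droplets, read 16.6 and 128 against 8.30 and 19.7, and its difference of -1.22 ± 0.27 was not called (limma adjusted p = 0.0629). Agpat2, the enzyme that adds the second fatty acid, read 137 and 506 against 108 and 138 and was also not called (-1.03 ± 0.26, limma adjusted p = 0.0892).

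Of the 18 fat cell marker proteins tested, 7 fell and none rose, against the background of 0.484% lower calls. This list, like the others, was chosen with earlier results of these data known. The list median was -0.78, with -0.46 at 36 h and -1.23 at 48 h, beside 0.01 over all genes tested. All 18 were lower at 48 h and 16 at 36 h. Among them Car3, the carbonic anhydrase of fat and muscle, read 141 and 362 against 76.5 and 139 (-1.02 ± 0.21, limma adjusted p = 0.0411). Lpl, the lipoprotein lipase, gave 3806 and 5379 against 3600 and 3997 (-0.25, limma adjusted p = 0.469), and Slc2a4, the insulin-responsive glucose transporter, stayed at 27.9 or less on all 4 arrays. Of the 22 genes of lipid uptake and triglyceride assembly 5 fell (median -0.56), and of the 7 genes of lipolysis, 1 fell (G0s2, median -0.50). Lists overlap, as Fabp4, Fabp5 and G0s2 stand in more than 1. In bulk RNA, fewer cells that had begun to differentiate and less RNA per such cell cannot be told apart.

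Of the 14 late adipogenic factors tested, which include the drivers of these genes, 1 fell, beside 0.484% of all genes tested. The list median was -0.045, with 0.04 at 36 h and -0.22 at 48 h. At both hours alike 5 of the 14 were lower and 4 higher, so the list did not fall as a whole. Pparg, the master regulator of fat cell formation, read 505 and 661 with the empty virus and 281 and 311 with SETD5. The difference of -0.93 ± 0.23 missed the threshold (limma adjusted p = 0.0871). Pparg had been lower at 24 h already (278 with the empty virus and 135 with SETD5), as the plot of fat cell genes by hour shows. Cebpa, the partner of PPARγ, read 59.7 and 93.3 against 45.6 and 53.0 (-0.48 ± 0.24, limma adjusted p = 0.372). Ppargc1b, a coactivator of mitochondrial and lipid genes, was the factor that fell, with 54.9 and 116 against 15.1 and 50.1 (-1.10 ± 0.18, limma adjusted p = 0.0183). Cd36, a fatty acid transporter, read 11.8 and 117 against 6.30 and 36.2 (-0.83 ± 0.20, limma adjusted p = 0.0750).

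The C/EBP factors that act before PPARγ were not called. Cebpb read 4083 and 3382 with the empty virus and 3302 and 3353 with SETD5 (-0.16 ± 0.12, limma adjusted p = 0.584). Cebpd read 960 and 940 against 1108 and 1102 (0.21 ± 0.14, limma adjusted p = 0.509). Of the 15 early-induced adipogenic factors tested, Stat5a fell and the others were not called, again beside 0.484% lower calls over all genes. Stat5a, a signal transducer that acts with the glucocorticoid receptor in adipogenesis, read 238 and 306 against 148 and 167 (-0.73 ± 0.11, limma adjusted p = 0.0128). Hdac3, the deacetylase of the corepressor complex, read 377 and 432 against 438 and 415 (0.08 ± 0.11, limma adjusted p = 0.808). None of the 12 genes tested for the corepressor and elongation complexes was called, beside 1.45% of all genes tested. At that share 12 genes are too few for the absence of a call to be read as no difference.

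The falls outside the fat cell lists held genes of metabolism, signalling and cell division. Mcrip2 read 157 and 302 against 72.1 and 126 (-1.07 ± 0.12, limma adjusted p = 0.00514). Lrig1, a membrane protein that restrains growth factor receptors, read 803 and 1892 against 465 and 898 (-0.92, limma adjusted p = 0.0191). F3, the tissue factor of coagulation, read 710 and 793 against 353 and 457 (-0.88, limma adjusted p = 0.0210). Nup54, a nuclear pore protein, read 462 and 485 against 219 and 268 (-0.92 ± 0.18, limma adjusted p = 0.0375). The other probe sets of Nup54 with a mean of at least 50 gave only -0.20 and -0.30. Hk2, the hexokinase of insulin-responsive tissues, and Gys1, glycogen synthase, fell by 0.61 and 0.56 on the log2 scale (limma adjusted p = 0.0390 and 0.0387). Lrig1, F3, Hk2 and Gys1 were chosen after their values were seen. Mcrip2 and Lrig1, though outside the fat cell lists, are members of the late programme defined below. Among the 24 genes with the largest rises and falls, 16 had another probe set. The 12 other probe sets with a mean of 50 or more had the sign of the one used. Their sizes could be smaller (0.36 against 1.20 for Pde10a) or larger (1.79 against 1.24 for Adamts9).

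The late programme was defined on other arrays, as the genes whose empty virus level rose by at least 2 on the log2 scale from 0 to 24 h to 96 and 192 h. It held 121 genes, of which 16 fell at 36 and 48 h (13.2%, beside 0.484% of all genes tested) and 0 rose. The 16 include Adipoq, Fabp4, Retn, G0s2, Rarres2, Fabp5 and Car3 of the fat cell marker list, so the counts for the list and the programme overlap. The median difference of the programme was -0.21 at 36 h and -0.40 at 48 h, beside 0.03 and -0.003 over all genes. At 0, 12 and 24 h its median lay at 0.04, 0.07 and 0, values that partly follow from the choice of genes on the empty arrays of those hours. The programme climbed in both arms. From 24 to 36 h the median step was 0.79 with the empty virus and 0.51 with SETD5, and from 36 to 48 h it was 0.50 and 0.31. The empty virus array of 24 h helped choose the genes, so the step from 24 to 36 h in that arm partly follows from the choice. In 71 of the 121 genes the SETD5 arm at 48 h stood above the empty arm at 36 h, and in 49 it lay between the empty arm's 36 and 48 h levels. Over all 8682 genes tested these counts were 4568 and 1713. The genes nearest the limit were Apcdd1, which rose by 1.996 and was left out, and Cyp51, which rose by 2.03 and was kept. The 74 genes silenced over the same span in the empty arm held 1 rise and 1 fall, with a median of -0.24. Their median was -0.05 at 36 h and -0.38 at 48 h, with 52 of the 74 lower at 48 h. A lower median at 48 h was thus not particular to the late programme.

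**Figure D3:**
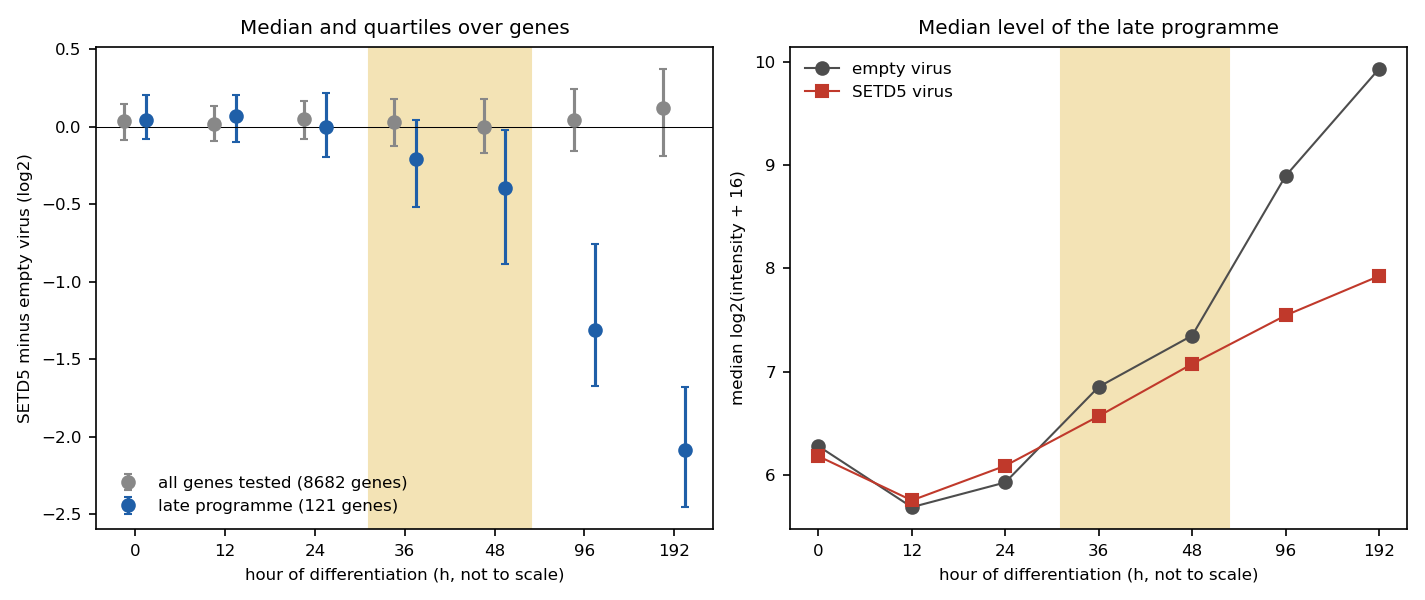
Left, median and quartiles over genes of SETD5 minus empty virus (y axis, log2) at each hour (x axis, not to scale) for the 121 late programme genes and all 8682 genes tested; right, median log2(intensity + 16) of the late programme in each arm. The medians part at 36 h (-0.21) and 48 h (-0.40); the empty virus arrays of 0 to 24 h and of 96 and 192 h chose the genes, so the differences at those hours partly follow from the choice.

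The 10 late programme genes with the largest rise were Adipoq, Thrsp, Fabp4, Cidec, Retn, Cd36, Car3, Gpd1, Sult1a1 and Hp. Adipoq, Fabp4, Retn and Car3 fell, as given above. Thrsp, a protein of lipid synthesis, read 9.40 and 49.1 against 8.50 and 21.8 (-0.42, limma adjusted p = 0.266). Gpd1, which supplies glycerol phosphate, read 1.20 and 21.1 against 2.00 and 7.20 (-0.31, limma adjusted p = 0.407), so it stayed under 50 in both arms. Hp, haptoglobin, read 169 and 107 against 115 and 101 (-0.29, limma adjusted p = 0.459). Sult1a1, a sulfotransferase, was higher with SETD5 at both hours (71.5 and 188 against 117 and 207) and not called (0.37, limma adjusted p = 0.708).

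Since C/EBP factors precede this programme, the RefSeq promoters (GRCm38.p6, 250 bases before to 50 after the start) were searched on both strands for TTGCNNCAA, TTGCNNAAT and ATTGCNNAA, letters of the C/EBP site, which can overlap one another, for TATAAA and for the direct repeat bound by PPARγ with its partner RXR. A promoter was at hand for 86 of the 121 late programme genes and for 7157 of the genes tested. The C/EBP letters occurred in 12 of the 86 (13.95%), in 4.75% of the genes tested and in 6.705% of all 27025 genes of the table. TATAAA occurred in 13 of the 86 (15.12%) and in 8.383% of the genes tested, and the PPARγ repeat in 0 of the 86 and 0.1537% of the genes tested. The C/EBP letters occurred in 3 of 34 genes called lower (Abhd15, Hk2 and Nolc1, 8.824%), in 5 of 65 called higher (7.692%), and in none of the promoters of Adipoq, Retn, Gpat3 and G0s2. A match is a description of the sequence and not a binding site. The promoters of Cidec, Abhd15 and Thrsp are shown because they hold the letters in late programme genes of the lipid droplet and lipid metabolism, with the match in capitals. They lie at chr6:113434715-113435014 (minus strand, the downstream start of 2 listed), chr11:77514867-77515166 (plus strand) and chr7:97417501-97417800 (minus strand).
Cidec: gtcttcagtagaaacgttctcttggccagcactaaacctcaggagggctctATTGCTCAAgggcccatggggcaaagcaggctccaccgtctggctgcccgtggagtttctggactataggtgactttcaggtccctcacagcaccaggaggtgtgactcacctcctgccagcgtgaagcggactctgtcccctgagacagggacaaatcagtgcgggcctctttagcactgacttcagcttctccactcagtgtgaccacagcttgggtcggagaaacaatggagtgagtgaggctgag
Abhd15: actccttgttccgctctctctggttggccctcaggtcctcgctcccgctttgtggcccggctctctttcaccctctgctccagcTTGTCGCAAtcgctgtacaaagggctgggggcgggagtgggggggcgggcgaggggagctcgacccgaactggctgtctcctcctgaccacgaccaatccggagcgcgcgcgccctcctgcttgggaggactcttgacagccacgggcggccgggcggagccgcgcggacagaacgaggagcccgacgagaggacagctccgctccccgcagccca
Thrsp: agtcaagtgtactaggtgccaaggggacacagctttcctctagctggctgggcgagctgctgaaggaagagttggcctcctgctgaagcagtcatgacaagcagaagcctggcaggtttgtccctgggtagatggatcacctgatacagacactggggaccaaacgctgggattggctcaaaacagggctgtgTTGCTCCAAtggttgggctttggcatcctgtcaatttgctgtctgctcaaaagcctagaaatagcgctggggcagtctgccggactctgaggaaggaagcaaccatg

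Of these, Abhd15, a protein of adipocytes that takes part in the control of lipolysis, read 82.7 and 108 with the empty virus and 47.3 and 53.3 with SETD5, and it fell (-0.74 ± 0.16, limma adjusted p = 0.0484). Its SETD5 values lay below both empty virus values, which held for 16.2% of all genes tested. Cidec and Thrsp were lower at both hours and not called, as given above. Of the 12 late programme genes that hold the letters, Abhd15 alone was called. Islr, Gdpd2, Cdkn2c, Dpt and Steap4 were instead higher on average over both hours (0.45, 0.37, 0.08, 0.04 and 0.04). The genes shown therefore do not stand for all that hold the letters.

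Lbp, Slc2a13 and Id4 gave the largest rises. Lbp, which binds bacterial lipopolysaccharide, read 112 and 77.6 with the empty virus and 346 and 315 with SETD5. The difference of 1.66 ± 0.13 had the smallest adjusted p of all genes tested (limma adjusted p = 0.000851). Lbp was higher at each successive hour to 36 h in both arms and was already higher with SETD5 at 0, 12 and 24 h (0.77 ± 0.10, limma adjusted p = 0.0323). Slc2a13, a transporter of inositol, read 183 and 147 against 531 and 410 (1.42 ± 0.17, limma adjusted p = 0.00618). Adamts9, a secreted metalloprotease, read 155 and 193 against 385 and 479 (1.24 ± 0.12, limma adjusted p = 0.00254), and its early difference of 1.17 was about as large. Cd24a, a surface glycoprotein of adipocyte progenitors, read 135 and 101 against 306 and 243 (1.12 ± 0.12, limma adjusted p = 0.00254), after an early difference of 0.95. In all 12 of the named rises both SETD5 values lay above both empty virus values, which held in the opposite direction for 5 of the 12 named falls; over all genes tested the arms did not overlap in 21.4% (SETD5 higher) and 16.2% (SETD5 lower).

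**Figure D4:**
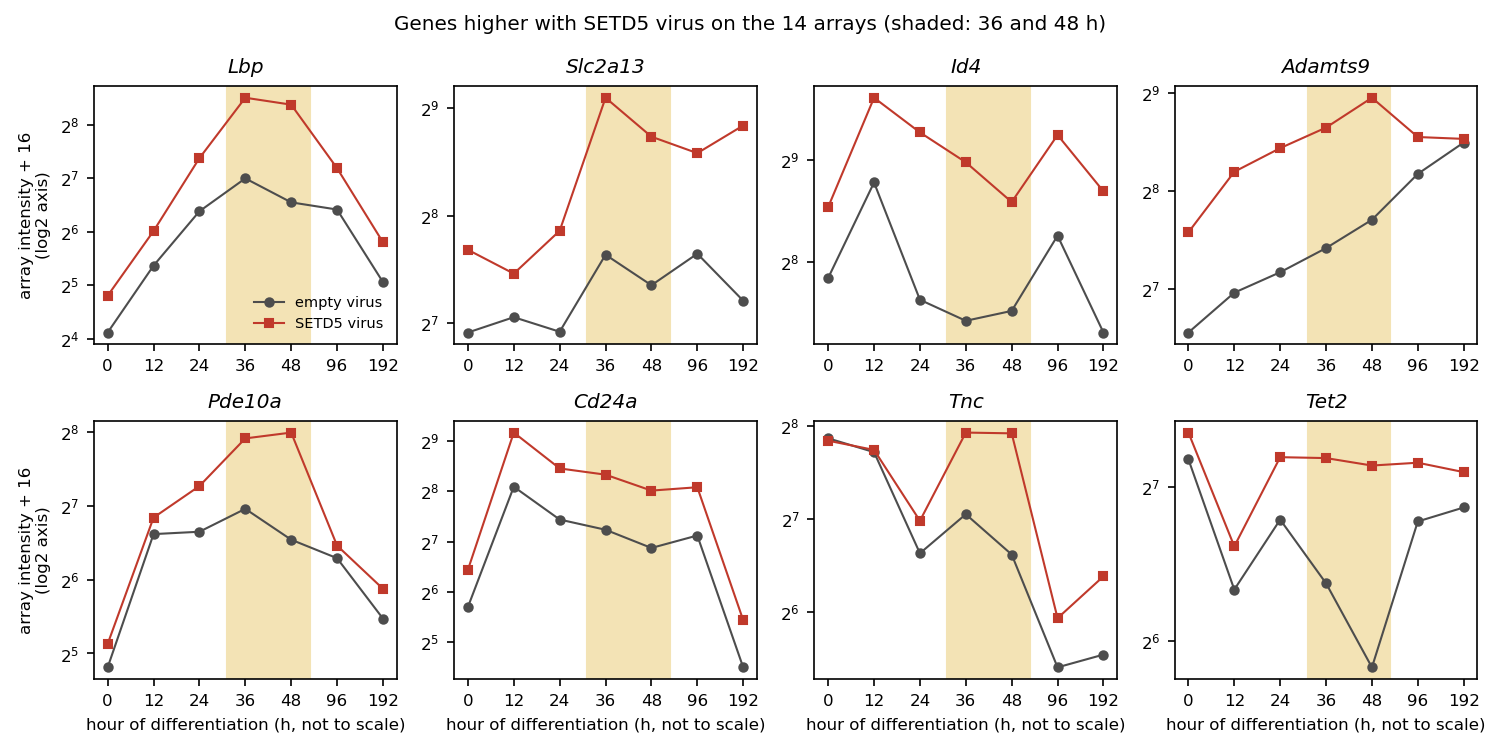
Array intensity + 16 (y axis, log2 scale) of 8 genes called higher with SETD5 at 36 and 48 h, at each hour (x axis, not to scale), with 1 array per point, the empty virus in grey and the SETD5 virus in red. Lbp, Adamts9 and Cd24a were already called higher at 0 to 24 h, whereas the early differences of Tnc (0.12) and Tet2 (0.29) were not called.

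Id4, an inhibitor of basic helix-loop-helix factors, read 155 and 167 with the empty virus and 487 and 368 with SETD5 (1.31 ± 0.21, limma adjusted p = 0.0183). Pde10a, a phosphodiesterase of cyclic nucleotides, read 108 and 77 against 224 and 238 (1.20 ± 0.15, limma adjusted p = 0.00618). Tnc, the matrix protein tenascin C, read 116 and 81.9 against 227 and 226 (1.09 ± 0.15, limma adjusted p = 0.00825). Tet2, an enzyme that oxidises methylcytosine, read 67 and 40.9 against 130 and 125 (1.06 ± 0.13, limma adjusted p = 0.00660). Another Tet2 probe set, with a mean of 92.9, gave only 0.47, and another Pde10a probe set, with a mean of 60.5, only 0.36. For Pde10a, Tnc and Tet2 the empty arm was lower at 48 h than at 36 h, while the SETD5 arm stayed near its 36 h level. Insyn2a read 76.1 and 60.8 against 161 and 185 (1.17 ± 0.17, limma adjusted p = 0.0126). The uncharacterised transcripts C130075A20Rik, 2310067E19Rik and 5031426D15Rik completed the named rises, at 1.28, 1.25 and 1.17 (limma adjusted p = 0.0375, 0.0128 and 0.0126).

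Of the 35 inhibitors of fat cell formation tested, 3 rose (Id4, Wnt5a and Nr2f1) and 0 fell, beside 0.968% higher calls over all genes. Wnt5a, a noncanonical Wnt ligand, read 340 and 304 against 508 and 582 (0.73 ± 0.13, limma adjusted p = 0.0250). Nr2f1, a nuclear receptor, read 228 and 192 against 409 and 272 (0.63 ± 0.11, limma adjusted p = 0.0266). The list median was 0.15, with 0.12 at 36 h and 0.21 at 48 h, and 0.04 after scaling to a common median. Twist1, which restrains PPARγ coactivation, was 0.50 ± 0.12 and not called (limma adjusted p = 0.0754). Of the 11 preadipocyte and fibroblast markers tested 1 rose (Cd24a), beside the same 0.968%, with a list median of 0.21. Pdgfra, the receptor that marks adipocyte progenitors, read 2168 and 2164 against 2707 and 2890 (0.37 ± 0.10, limma adjusted p = 0.122). Among 30 actin and contractile genes Myl9, a myosin light chain, rose (19.2 and 11.3 against 42.8 and 37.1, 0.85 ± 0.16, limma adjusted p = 0.0374), and among 51 genes of collagens and matrix Tnc did.

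Slit2, Fat4 and Msx1 were also among the rises and were chosen here after their values were seen. Slit2, a secreted guidance cue, read 344 and 440 with the empty virus and 683 and 942 with SETD5 (1.01 ± 0.13, limma adjusted p = 0.00825). Fat4, an atypical cadherin, read 168 and 142 against 316 and 353 (1.04 ± 0.14, limma adjusted p = 0.00768). Msx1, a homeobox factor, read 56.5 and 48.2 against 116 and 91.1 (0.80 ± 0.12, limma adjusted p = 0.0114).

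Long noncoding RNAs, grouped by their RefSeq biotype after the calls were seen, held 8 rises among 112 tested (7.14%), beside 76 among the 8570 other genes (0.887%), and no fall. The 8 were 5031426D15Rik, C130075A20Rik, Phxr4, Lncpint, Neat1, Mir22hg, Airn and Kcnq1ot1. Neat1, the scaffold RNA of paraspeckles, read 1122 and 779 with the empty virus and 1744 and 1504 with SETD5 (0.78 ± 0.11, limma adjusted p = 0.0114). Airn and Kcnq1ot1, antisense RNAs of imprinted loci, read 347 and 262 against 527 and 483 and 159 and 104 against 233 and 203 (0.71 and 0.69, limma adjusted p = 0.0288 and 0.0317). The median over all 112 was 0.07, close to the 0.01 of the other genes, so the rises lay in a few members.

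Genes of cell division had lower values with SETD5, with the lower medians at 48 h. Of 50 genes of mitosis and cytokinesis, 3 fell and 0 rose, beside 0.484% lower calls over all genes, and the median was -0.07 at 36 h and -0.41 at 48 h. It was -0.15 at 0 to 24 h, so the list was already lower before 36 h. At 48 h 49 of the 50 were lower with SETD5, beside 50.5% of all genes tested. Ect2, which positions the cleavage furrow, read 104 and 78 against 60.8 and 38.3 (-0.72 ± 0.12, limma adjusted p = 0.0210). Kif20b and Kif2c, mitotic kinesins, gave -0.67 and -0.62 (limma adjusted p = 0.0359 and 0.0375). Cdc20, the activator of the anaphase-promoting complex, read 624 and 397 against 650.2 and 271, a difference of 0.06 at 36 h and -0.53 at 48 h (-0.23 ± 0.16 over both, limma adjusted p = 0.530). Of 39 genes of DNA replication and S phase 1 fell, beside the same 0.484%. It was Ccne2, which encodes cyclin E2 (136 and 192 against 78.2 and 96.3, -0.79 ± 0.13, limma adjusted p = 0.0197). The median of that list was -0.05 at 0 to 24 h, -0.01 at 36 h and -0.33 at 48 h, with 38 of 39 lower at 48 h.

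Mitochondrial genes had lower values at 48 h and no call, beside calls for 1.45% of all genes tested. All 44 genes of oxidative phosphorylation were lower with SETD5 at 48 h (median -0.24), against 15 of 44 at 36 h (median 0.06). Cycs, cytochrome c, read 2994 and 4145 against 2147 and 2721 (-0.54 ± 0.13, limma adjusted p = 0.0871). In the citric acid cycle and pyruvate dehydrogenase 22 of 23 genes were lower at 48 h and 11 at 36 h. Idh3a, a subunit of isocitrate dehydrogenase, read 749 and 1612 against 574 and 744 (-0.74 ± 0.16, limma adjusted p = 0.0537). Fatty acid oxidation and peroxisome genes were lower at 48 h in 26 of 26 (median -0.28). These genes share 1 pair of arrays per hour, so their agreement within an hour includes whatever set those arrays apart as a whole. Over all genes the median difference moved by -0.19 at 48 h under scaling to a common median, and by -0.02 under quantile normalization.

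**Figure D5:**
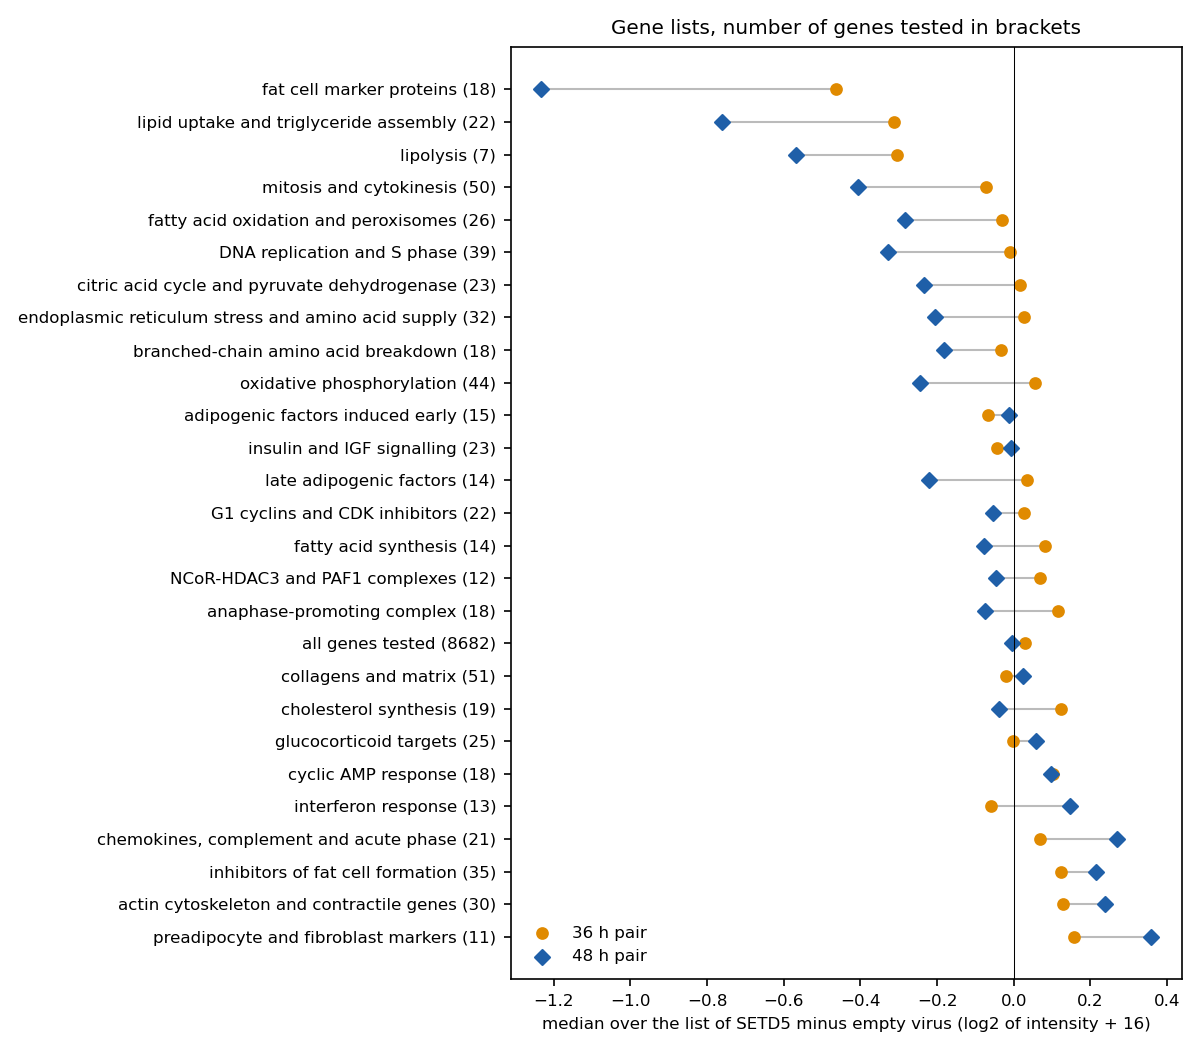
Median over each gene list of SETD5 minus empty virus (x axis, log2 of intensity + 16) in the 36 h pair (orange circles) and the 48 h pair (blue diamonds), with the number of genes tested in brackets. Fat cell marker proteins lie lowest (-0.46 and -1.23), and preadipocyte and fibroblast markers highest at 48 h (0.36).

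Calls made up 1.45% of all genes tested, a share at which short lists often hold none. In 13 of the 26 lists with at least 7 genes tested no gene was called, and their medians lay between -0.17 and 0.07. Besides the mitochondrial lists these held fatty acid synthesis, cholesterol synthesis, branched-chain amino acid breakdown, insulin signalling, glucocorticoid targets, endoplasmic reticulum stress, the interferon response, the cyclins of G1 and their inhibitors, the anaphase-promoting complex and the corepressor complexes. Fasn, fatty acid synthase, read 695 and 975 against 624 and 637 (-0.38, limma adjusted p = 0.383), and Scd1, the fatty acid desaturase, read 2903 and 3452 against 2669 and 2333 (-0.34, limma adjusted p = 0.535). The cyclic AMP response list held 1 rise among 18 genes (Pde10a), beside 0.968% higher calls over all genes. That of chemokines, complement and acute phase proteins held 1 among 21 (Lbp).

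Taken singly, the 36 h pair gave no called gene (829 at an unadjusted p under 0.05) and the 48 h pair 36 genes (0.415%), 21 higher (0.242%) and 15 lower (0.173%). At 36 h 13 genes (0.150%) were over 2-fold higher and 20 (0.230%) over 2-fold lower, and at 48 h 40 (0.461%) and 36 (0.415%). At both hours 7 (0.0806%) and 9 (0.104%) exceeded 2-fold. The 84 higher genes had a median difference of 0.71 at 36 h and 0.79 at 48 h, and the 42 lower genes of -0.73 and -0.84. The SD of the difference over all genes tested also went from 0.26 at 36 h to 0.31 at 48 h. The test of 48 h against 36 h called no gene (524 at an unadjusted p under 0.05), so no gene's difference was shown to grow between these hours. The largest rises at 48 h included Mmp13, a collagenase, which read 16.1 and 33.9 with the empty virus and 18.6 and 152 with SETD5 (1.75 ± 0.26 at 48 h, limma adjusted p = 0.0377). Abi3bp, a matrix protein, read 122 and 120 against 151 and 387 (1.57 ± 0.25 at 48 h, limma adjusted p = 0.0530). Lum, the collagen-binding lumican, was among the largest falls at 36 h, with 980 and 896 against 420 and 453 (-1.08 ± 0.23 over both hours, limma adjusted p = 0.0537). Rnf185, a ubiquitin ligase, went opposite ways (311 and 172 against 113 and 300.2), as the -1.34 at 36 h and 0.75 at 48 h show. Ifi207, an interferon-induced gene (134 and 118 against 46.1 and 114), and Rps27, a ribosomal protein (40.6 and 52.4 against 123 and 67.5), differed mainly at 36 h.

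Before 36 h few genes were called. At 0 to 24 h 6 genes were higher (0.0691%) and 2 lower (0.0230%). Of the 84 genes higher at 36 and 48 h, 5 were called in the early window too. The median early difference of the 84 was 0.26, beside 0.03 over all genes tested. Of the 42 lower genes, 0 were called early, and their median early difference was -0.14. After 48 h, 60 of the 84 and 31 of the 42 were called in the same direction at 96 and 192 h, where 15.8% of all genes were higher and 11.4% lower. The effect at 96 and 192 h differed from that at 36 and 48 h in 206 genes (2.37%), of which 24 were among the 126. Over all genes the virus difference had an SD of 0.20 in the 0 h pair, 0.26 and 0.31 in the 36 and 48 h pairs, and 0.57 in the 192 h pair.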

How the data were processed

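RNA of 14 samples, 7 per virus, was hybridised to Affymetrix Mouse Genome 430 2.0 arrays. The labels do not state whether the hours of an arm came from separate cultures, so p-values measure only the spread between these samples, which may be technical. The authors computed average difference intensities with the GeneChip Analysis Suite and scaled each array to the same mean; the deposited intensity values had a trimmed mean of 100.0 on every array. The raw scanner values were not used here, so depth and background are known only through the intensity. Of 45100 probe sets, 34944 carried 1 gene symbol, 932 several and 9160 none. Each gene was represented by its brightest probe set, and genes reaching 50 on at least 3 arrays were tested as log2(intensity + 16).

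Groups and hours came from the labels. limma 3.58.1 in R 4.3.3 (two-sided, lmFit and eBayes) was fitted to all 14 arrays with hour as a block and 1 virus effect each for 0 to 24 h, 36 and 48 h, and 96 and 192 h (4 residual degrees of freedom, with 6.27 from the prior). A second fit took 36 and 48 h apart (3 and 5.25). Adjusted p under 0.05 over all 8682 genes was called. The same hour pairs the arms. Named genes were the 12 largest rises and falls over both hours (mean intensity of 100 or more in either arm and the same sign at both hours), up to 5 each way for the other tests and for each hour singly, up to 4 members of each of 30 lists, 10 late programme genes and a few always named. The members and lists were chosen with earlier results of these data known. The late minus 36 and 48 h contrast was added after seeing the data. The model was tested on simulated data. Alternatives covered scaling, offset, filter, probe sets, the hour block, the prior and leaving out each hour.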

Additional observations from a re-analysis of the deposited data

Results flagged for a closer look

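Fabp5 was picked out because its virus difference changed between windows: the difference at 36 and 48 h minus that at 0 to 24 h was -1.49 ± 0.16 (limma adjusted p = 0.0174), from 0.29 early to -1.20, and it was -1.27 at 96 and 192 h.

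Of the 126 genes called at 36 and 48 h, 24 had a different virus effect at 96 and 192 h by the test of that difference, and for 11 of these the late effect was the larger in the same direction. Among the genes named by rule for 36 and 48 h these were 5. G0s2 went from -1.33 to -3.41 (difference -2.08 ± 0.34, limma adjusted p = 0.0204). Dgat2 went from -0.95 to -2.66 (-1.71 ± 0.25, limma adjusted p = 0.0162). Mcrip2 went from -1.07 to -2.07 (-0.9996 ± 0.17, limma adjusted p = 0.0224). Lbp went from 1.66 to 0.76 (-0.91 ± 0.18, limma adjusted p = 0.0328). Adamts9 went from 1.24 to 0.21 (-1.03 ± 0.17, limma adjusted p = 0.0213), as its empty virus level climbed from 193 at 48 h to 345 at 192 h while the SETD5 level went from 479 to 354. No group held 4 arrays of the same virus and hour, so no array could be set against replicates.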

How the results depend on the processing

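The 24 genes with the largest rises and falls kept their sign under every alternative in which they were tested, but their calls depend on the 48 h pair, the hour block and the filter. The same hour in both arms pairs the arrays. Without the replicate block for hour no gene was called (0 higher, 0 lower and 0 for the departure from 0 to 24 h), and all 24 calls were lost. Leaving out 1 hour pair at a time gave 0 to 180 higher and 0 to 119 lower genes, 0 to 4 for the departure, 0 to 15 at 36 h alone and 4 to 302 at 48 h alone. The 0 came without the 48 h pair, which lost all 24 calls, and the highest counts without the 96 or the 192 h pair. Without the 12 h pair 44 were higher and 26 lower, and without the 24 h pair 55 were higher. For the late programme these settings gave medians of -0.41 to -0.15 and 0 to 39 calls.

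With no filter 8 genes were higher and 7 lower, with 0 for the departure, 0 at 48 h and 7 in the late programme; 11 of the 24 calls were lost, among 18193 genes tested in place of 8682. A filter of 100 gave 2 for the departure. Common-median scaling gave 55 higher and 78 lower, 7 for the departure, 16 at 36 h, 143 at 48 h, and 23 higher and 86 lower over 2-fold at 48 h. It also turned the median of the cyclic AMP list from 0.05 to -0.034. Quantile normalization gave 0 for the departure and 13 at 48 h. An offset of 4 gave 0 for the departure, 12 called at 48 h, 32 higher and 37 lower over 2-fold at 36 h, and 81 and 61 at 48 h. An offset of 64 gave 3 for the departure, 4 and 4 over 2-fold at 36 h, and 12 and 17 at 48 h. With every probe set on its own 241 were higher and 113 lower, with 3 for the departure, 128 at 48 h, 26 and 81 over 2-fold at 36 h, and 148 and 78 at 48 h. A trended, robust prior gave 4 for the departure. From the 4 arrays alone 216 were higher and 165 lower. Separate effects for 96 and 192 h gave 180 and 119, 4 for the departure, 15 at 36 h and 302 at 48 h; this fit and those without either late pair share their residuals. A programme rise of 1 or 3 in place of 2, added after seeing the data, gave medians of -0.077 and -0.50. The causes of these changes were not tested. The number of arrays limits the precision, and values near 0 are set partly by the offset.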
